A study of Mus musculus with 6 samples.

Results

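MHC class I molecules were examined through 10 genes in ovarian RNA of mice of high and low litter size. The 10 are the heavy chain genes H2-K1, H2-D1, H2-Q4, H2-Q6, H2-Q7, H2-T23 and H2-M3, the light chain gene B2m, the transporter gene Tap1 and the tapasin gene Tapbp. They were taken by symbol, all 10 were found among the 36727 genes of the table, and all 10 passed the filter on low counts. The high litter size group held 3 libraries (replicates 1, 3 and 4), and the low litter size group held 3 (replicates 1, 2 and 5). All 6 came from adult F4 inbred Swiss albino females of 135 to 140 days, from ovarian tissue labelled as staged by estrous phase, and no other treatment or allele is given. The study addressed which ovarian genes relate to fitness. Whether each library is a separate animal is not labelled, so the p-values reflect only how far these samples spread, and that spread may be technical. The labels give no H2 haplotype, the set of MHC alleles, for any sample.

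A class I molecule is a heavy chain paired with beta-2 microglobulin, the B2m product, and it carries a short peptide cut by the proteasome. The Tap1 and Tap2 proteins form the transporter that moves peptides into the endoplasmic reticulum. There tapasin holds the empty molecule at the transporter, with calreticulin and the disulfide isomerase Pdia3, until a peptide is bound. H2-K1 and H2-D1 encode the classical molecules seen by CD8 T cells. H2-T23 encodes Qa-1, which is read by the CD94 and NKG2A receptor of natural killer cells, H2-Q6 and H2-Q7 encode Qa-2 molecules, and H2-M3 presents formylated peptides. Nearly all nucleated cells make class I molecules, and interferon and the regulator Nlrc5 raise their transcription. In bulk tissue, fewer cells of a type and less RNA per cell cannot be told apart.

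The start sites of 4 members are shown because they differ in the elements that the heavy chain genes share. Each window runs from 250 bases before to 50 bases after the annotated start, from RefSeq on GRCm38.p6, 5′ to 3′ on the strand of the gene. All 10 members matched a window, and the first listed was used for H2-K1, which has 2. Capitals mark CCAAT in either direction, a pair of GAAA words 2 bases apart in either direction (an element bound by interferon regulatory factors), and an 11-base run described after the sequences.
H2-K1, chr17:34000298-34000597, minus strand: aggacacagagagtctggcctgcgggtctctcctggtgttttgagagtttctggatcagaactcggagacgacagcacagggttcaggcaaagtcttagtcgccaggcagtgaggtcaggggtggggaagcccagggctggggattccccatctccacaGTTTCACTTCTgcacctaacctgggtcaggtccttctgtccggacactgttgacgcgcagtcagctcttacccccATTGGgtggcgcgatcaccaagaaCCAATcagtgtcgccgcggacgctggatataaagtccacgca
H2-M3, chr17:37269984-37270283, plus strand: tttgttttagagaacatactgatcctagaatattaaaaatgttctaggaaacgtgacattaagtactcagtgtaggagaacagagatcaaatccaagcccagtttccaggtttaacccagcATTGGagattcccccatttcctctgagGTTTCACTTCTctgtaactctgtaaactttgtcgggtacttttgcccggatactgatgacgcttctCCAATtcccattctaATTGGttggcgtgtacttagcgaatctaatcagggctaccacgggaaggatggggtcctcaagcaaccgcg
H2-T23, chr17:36032652-36032951, minus strand: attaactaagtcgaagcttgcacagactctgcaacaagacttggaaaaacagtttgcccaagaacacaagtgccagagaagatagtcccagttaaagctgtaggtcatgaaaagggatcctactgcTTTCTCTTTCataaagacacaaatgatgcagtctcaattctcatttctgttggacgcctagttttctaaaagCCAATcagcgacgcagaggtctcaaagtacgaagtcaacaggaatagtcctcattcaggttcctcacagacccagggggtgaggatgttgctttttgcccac
B2m, chr2:122147437-122147736, plus strand: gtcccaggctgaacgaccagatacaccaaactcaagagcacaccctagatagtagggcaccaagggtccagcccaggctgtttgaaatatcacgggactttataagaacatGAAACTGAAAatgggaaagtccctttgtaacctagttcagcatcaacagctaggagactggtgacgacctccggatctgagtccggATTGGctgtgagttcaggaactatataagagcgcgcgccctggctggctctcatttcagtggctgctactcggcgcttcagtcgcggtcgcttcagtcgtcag

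The longest run of letters common to the windows of H2-K1, H2-D1, H2-Q4, H2-Q6, H2-Q7 and H2-M3 was GTTTCACTTCT, of 11 bases. It stood in 18 of 27025 promoter windows (0.0666%), counting both strands. The first 5 of these 6 genes also shared a run of 21 bases, ACAGGGTTCAGGCAAAGTCTT, found in 5 windows of the table. H2-T23 had neither run. The pair of GAAA words was found in H2-T23 and B2m, as against 3.49% of all windows. Read on the other strand, the 11-base run holds GAA and GAAA 2 bases apart, which the search for full pairs did not count. Absence of the full pair thus does not show that a window lacks an element for interferon regulatory factors. CCAAT was found in all 10 members, as against 37.9% of all windows. TGACG, the core of a cAMP response element, was found on either strand in 7 of the 10 and in 21.0% of all windows. H2-Q6, H2-T23 and Tapbp had none. The windows of Tap1 and of Psmb9, an immunoproteasome subunit on the opposite strand, shared 275 bases (chr17:34187306-34187580). These matches are descriptions of letters, not of bound sites.

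Close paralogs limit what the heavy chain values mean. Over the GENCODE M21 transcripts, 50.3% of the distinct 31-base words of H2-Q6 also occurred in transcripts of other genes, with H2-Q4 sharing the most (24.6%). The share was 39.1% for H2-Q7, 38.4% for H2-Q4, 26.7% for H2-D1, 24.5% for H2-T23 and 22.8% for H2-K1. It was 4.62% for H2-M3, 4.62% for Tapbp, 0.825% for Tap1 and 0 for B2m. The counts of the H2-K, H2-D, H2-Q and H2-T genes thus depend on how reads were divided among paralogs, whereas B2m, Tap1, Tapbp and H2-M3 share few or no such words. Whether the alleles of these mice match the reference sequence was not tested.

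Total estimated counts ran from 17620903 to 24758222 per library. Levels are in CPM, the count divided by the library size after TMM normalization, in which 1 count was worth 0.0390 to 0.0624 CPM. High replicate 3 stood apart by its adipocyte markers, which summed to 24420 CPM over 6 genes, against 3394 and 2221 CPM in high replicates 1 and 4 and 310 to 3600 CPM across the low libraries. Ovarian markers varied widely within groups. High replicates 1 and 3 and low replicate 2 had the lowest sums of both luteal and theca markers and oocyte markers. Summed luteal and theca markers were 22.5, 34.4 and 8482 CPM for high replicates 1, 3 and 4 and 717, 27.5 and 2846 CPM for low replicates 1, 2 and 5. Summed oocyte markers were 0.971, 2.93 and 47.9 CPM for high replicates 1, 3 and 4 and 9.99, 1.60 and 34.9 CPM for low replicates 1, 2 and 5. Of the 6 oocyte markers, Zp2, Zp3 and Figla were at 0 counts in high replicate 1 and low replicate 2, and Figla also in high replicate 3. The granulosa receptor Fshr was at 0 in high replicates 1 and 3, Amh in low replicate 2, and Cyp17a1 in high replicate 1 and low replicate 2. Low replicate 5 stood apart within the MHC region, as described further on.

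Of the 10 members, none passed when high was compared with low litter size (edgeR quasi-likelihood test, Benjamini-Hochberg adjusted p from 0.348 to 0.939, n = 3 and 3). In the same test 1 of 16455 genes passed (0.00608%), and 14.4% had an unadjusted p under 0.05, against 0 of the 10 members. DESeq2 called 0 members and 6.56% of the genes for which it gave an adjusted p (2.26% as higher and 4.3% as lower). The log2 fold change was positive for 9 members and negative for 1, H2-D1, with a median of 0.56, against 55.3% positive and a median of 0.07 over all tested genes. Without high replicate 3 the median of the members was 0.11, with 9 still positive. 1 member, H2-Q6, lay higher in all 3 high libraries than in any low library, and 8.75% of all genes did so.

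**Figure D1:**
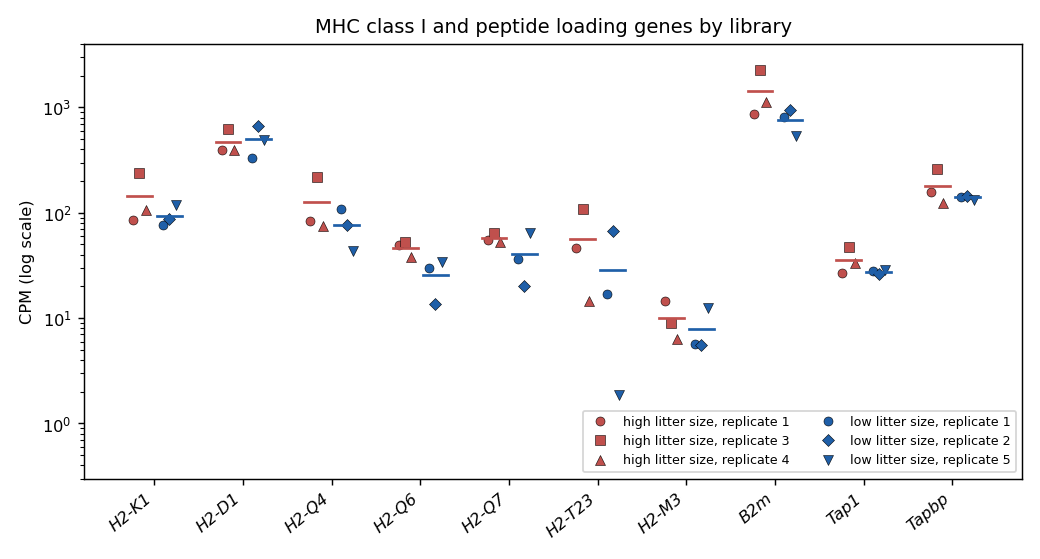
Level of each member in each library, in CPM on a log axis, with high litter size in red on the left of each pair and low litter size in blue on the right. Horizontal lines are group means of 3 libraries. High replicate 3 (squares) is the highest library for 7 of 10 genes, and low replicate 5 lies far below the rest for H2-T23, at 1.87 CPM.

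Scaled to the length of the longest coding transcript, B2m had the highest level of the 10, at 1265 ± 705 CPM per kb over all 6 libraries (SD, n = 6). H2-D1 followed with 230 ± 65.4 CPM per kb and H2-K1 with 73.3 ± 38.0 CPM per kb, and the ranges of these 3 genes did not overlap. H2-Q4 (56.7 ± 34.5 CPM per kb) and Tapbp (55.1 ± 16.98 CPM per kb) came next, with ranges that overlapped each other, and that of H2-Q4 also overlapped that of H2-K1. H2-Q7 (32.1 ± 11.3 CPM per kb), H2-T23 (29.1 ± 27.5 CPM per kb) and H2-Q6 (17.4 ± 6.79 CPM per kb) had lower means, and neighbours in this order overlapped. Tap1 (10.8 ± 2.78 CPM per kb) and H2-M3 (6.21 ± 2.65 CPM per kb) were the lowest, and their ranges overlapped. The B2m level per length exceeded that of the highest heavy chain in 6 of 6 libraries.

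The light chain gene B2m (ENSMUSG00000060802) is at chromosome 2, 122147686 to 122153083, in the GENCODE M21 annotation of GRCm38, which also gives the other positions. It had 863, 2260 and 1127 CPM for high replicates 1, 3 and 4, against 804, 939 and 533 CPM for low replicates 1, 2 and 5. High replicate 3 stood above every other library, and high replicate 1 lay below low replicate 2, so the groups overlapped. The mean was 1417 ± 742 CPM for high and 759 ± 207 CPM for low litter size (SD, n = 3), a log2 fold change of 0.90 (SE 0.46, edgeR adjusted p = 0.428). Without high replicate 3 it was 0.39 (SE 0.34).

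The classical heavy chains had fold changes of opposite sign, and neither passed. H2-K1 (ENSMUSG00000061232, chromosome 17, 33996017 to 34000347, minus strand) had 85.4, 240.5 and 105 CPM for high replicates 1, 3 and 4, against 76.6, 86.4 and 118 CPM for low replicates 1, 2 and 5. High replicate 3 alone stood above the low libraries, and the log2 fold change of 0.62 (SE 0.42, edgeR adjusted p = 0.55) was 0.02 (SE 0.25) without it. H2-D1 (ENSMUSG00000073411, chromosome 17, 35262730 to 35267499) had 392, 626 and 392 CPM across the high libraries, against 333, 669 and 487 CPM across the low libraries. Its highest library was low replicate 2, and its log2 fold change was -0.08 (SE 0.36, edgeR adjusted p = 0.939). The sign of H2-D1 turned positive when any of high replicate 1, high replicate 4 and low replicate 2 was left out. The summed level of the pair was 614 ± 219 CPM for high and 590 ± 174 CPM for low litter size (SD, n = 3).

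The H2-Q genes held the member with the smallest p. H2-Q6 (ENSMUSG00000073409, chromosome 17, 35424850 to 35430055) had 49.6, 52.3 and 38.3 CPM for high replicates 1, 3 and 4, against 29.8, 13.5 and 34.0 CPM for low replicates 1, 2 and 5. The groups did not overlap, although high replicate 4 and low replicate 5 were close. The log2 fold change was 0.86 (SE 0.36, unadjusted p = 0.0502, edgeR adjusted p = 0.348), and it was 0.77 without high replicate 3 and 0.55 without low replicate 2. H2-Q7 (ENSMUSG00000060550, chromosome 17, 35439155 to 35443773) had 55.2, 63.6 and 52.7 CPM across the high libraries, against 36.7, 20.3 and 64.5 CPM across the low libraries. Low replicate 5 was here the highest of all 6, so the groups overlapped (log2 fold change 0.49, SE 0.40, edgeR adjusted p = 0.622). Without low replicate 5 the value was 1.003, and the adjusted p 0.315, while without low replicate 2 the value was 0.17. Both Qa-2 genes were lowest in low replicate 2, where H2-D1 was highest. The sum of H2-Q6 and H2-Q7 was 105, 116 and 91.0 CPM across the high libraries, against 66.5, 33.9 and 98.5 CPM across the low libraries, so it overlapped.

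H2-Q4 (ENSMUSG00000035929, chromosome 17, 35379617 to 35385290), which encodes the class I molecule Qb-1, had 83.8, 221 and 75.6 CPM for high replicates 1, 3 and 4, against 109, 77.3 and 43.7 CPM for low replicates 1, 2 and 5. The highest library was high replicate 3 and the lowest low replicate 5, and the other 4 lay between with the groups mixed. The log2 fold change was 0.73 (SE 0.52, edgeR adjusted p = 0.563), 0.06 without high replicate 3, and 0.45 without low replicate 5.

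**Figure D2:**
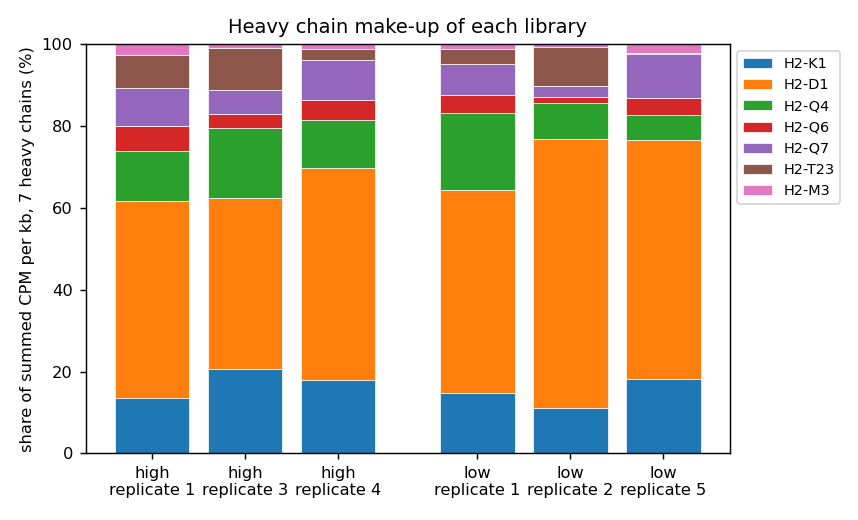
Make-up of the summed CPM per kb of the 7 heavy chain members in each library, in percent, with the 3 high litter size libraries on the left and the 3 low litter size libraries on the right. H2-D1 holds 41.6 to 51.7% in the high and 49.5 to 65.7% across the low libraries, and the share of H2-T23 runs from 0.320% in low replicate 5 to 10.36% in high replicate 3.

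H2-D1 held the most of the 7 heavy chains per length in every library, with 48.1, 41.6 and 51.7% for high replicates 1, 3 and 4 and 49.5, 65.7 and 58.3% for low replicates 1, 2 and 5. The share of H2-K1 was 13.6, 20.7 and 17.996% across the high libraries, against 14.8, 11.02 and 18.3% across the low libraries. Both shares overlapped between groups. The ratio of B2m CPM to the summed CPM of the 7 heavy chains was 1.19, 1.71 and 1.65 across the high libraries, against 1.32, 0.999 and 0.700 across the low libraries, where low replicate 1 lay above high replicate 1. The summed CPM of the 7 was 911 ± 356 for high and 770 ± 166 for low litter size (SD, n = 3).

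H2-T23 (ENSMUSG00000067212, chromosome 17, 36029773 to 36032855, minus strand) varied more than any other member. It had 906, 1751 and 292 counts for high replicates 1, 3 and 4, against 295, 1265 and 48 counts for low replicates 1, 2 and 5. In CPM these were 46.3, 109 and 14.7 across the high libraries, against 17.04, 67.5 and 1.87 across the low libraries. Its highest library was 58.4 times its lowest, where the corresponding ratio of the other 9 members was 1.84 to 5.06. Each group held libraries of high and of low level, and the log2 fold change was 0.98 (SE 1.19, edgeR adjusted p = 0.749). It was 0.10 without high replicate 3, 0.43 without low replicate 5 and 2.59 without low replicate 2, and limma voom gave 1.85. The H2 alleles of low replicate 5 are not labelled, and whether reads of another H2-T23 allele would be counted in full was not tested.

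H2-M3 (ENSMUSG00000016206, chromosome 17, 37270220 to 37274484) was the member of lowest level. It had 14.6, 9.05 and 6.28 CPM for high replicates 1, 3 and 4, against 5.72, 5.55 and 12.4 CPM for low replicates 1, 2 and 5. High replicate 1 and low replicate 5 were the highest, 1 in each group. The log2 fold change was 0.34 (SE 0.47, edgeR adjusted p = 0.784), and it was -0.06 without high replicate 1 and 0.83 without low replicate 5.

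Within the MHC region, low replicate 5 differed from the other 5 libraries in genes of the H2 family. The region was taken from Tapbp to H2-M3 (chr17:33915899-37274484), where 114 tested genes reached 5 CPM in a library. In low replicate 5, 7 of these 114 (6.14%) lay at least 4-fold below the median of the other 5 libraries, against 0.468% of 13876 genes across the genome. In the other 5 libraries, between 0 and 4.39% of the region and 0.980 to 2.64% of all such genes lay so low. Counted upward, at least 4-fold above the median of the other 5 libraries, low replicate 5 had 0 of the 114. Low replicate 1 had 6 (5.26%, against 2.71% of all such genes) and high replicate 3 had 4 (3.51%, against 4.35%). The 7 genes were H2-Eb1, H2-Ea-ps, H2-Q2, H2-T23, H2-T22, Gm11127 and Gm8909, of which 5 carry H2 symbols and 1, H2-T23, is a member. They were chosen by this threshold after the values were seen, so the share is a description with no test. Whether low replicate 5 carries H2 alleles other than those of the remaining libraries was not tested, which limits what its low counts say about expression. The class II gene H2-Eb1 had 136 counts in low replicate 5 and 1800 to 4967 in the other libraries, and H2-Ea-ps had 114 and 1969 to 5181.

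**Figure D3:**
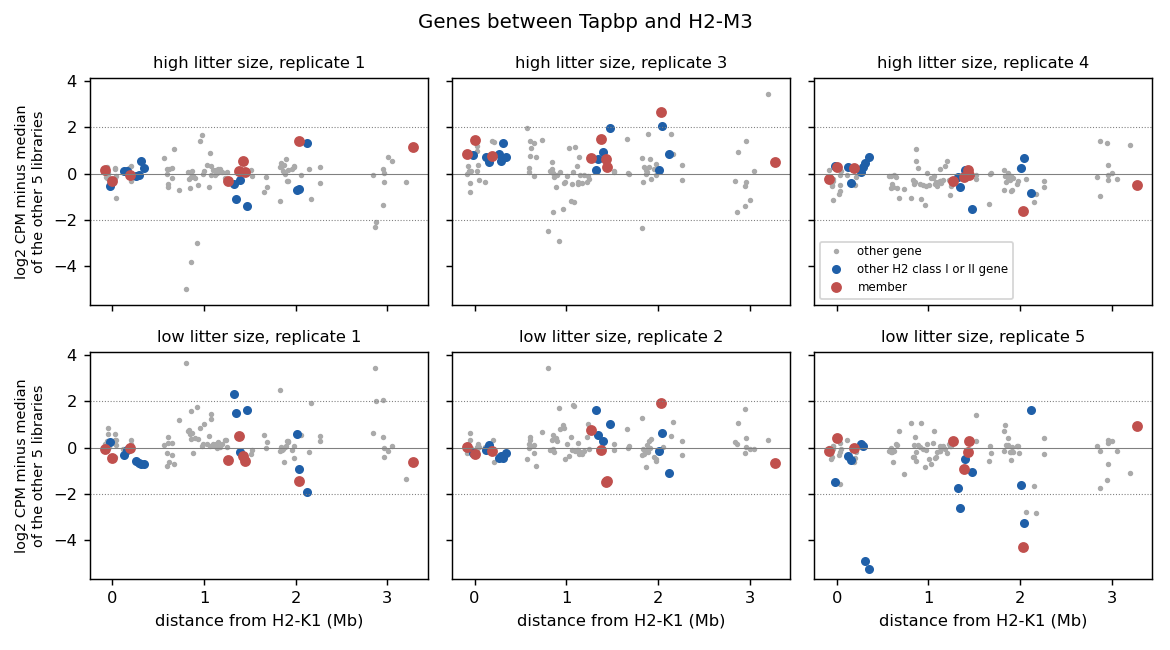
Tested genes between Tapbp and H2-M3, plotted by distance from the start of H2-K1 in Mb against log2 CPM (pseudocount 0.5) minus the median of the other 5 libraries, with 1 panel per library and high litter size in the upper row. Red points are members, blue points other H2 class I or II genes and grey points other genes, and dotted lines mark 4-fold. In low replicate 5, 7 genes lie below the lower line, H2-T23 among them.

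The neighbouring genes H2-T22 and H2-T10 lay at opposite ends in low replicate 5. H2-T22 had 23.9, 101 and 38.1 CPM for high replicates 1, 3 and 4, against 19.5, 37.5 and 3.47 CPM for low replicates 1, 2 and 5. H2-T10, which encodes a close relative of the H2-T22 product, had 14.9, 10.6 and 5.68 CPM across the high libraries, against 2.43, 4.80 and 18.7 CPM across the low libraries. Low replicate 5 was the lowest for H2-T22 and the highest for H2-T10. The sum of the pair was 38.7, 112 and 43.7 CPM across the high libraries, against 21.9, 42.3 and 22.2 CPM across the low libraries, so low replicate 5 lay within 1 CPM of low replicate 1. How reads were divided within the pair was not tested. H2-Q1 had 20, 25 and 27 counts across the high libraries, against 153, 99 and 3 across the low libraries.

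The other class I heavy chains gave 0 calls with edgeR in either direction among the 9 that were tested of 21 listed, 0 at an unadjusted p under 0.05 and 0 with DESeq2. 18 of the 21 were in the table, and 3 of these, H2-M1, H2-M10.3 and H2-M10.4, had 0 counts in all 6 libraries. Of the 9, 5 had positive and 4 negative log2 fold changes, with a median of 0.05. The 4 of smallest p were H2-M5 (1.57), H2-T22 (1.43), H2-Q1 (-1.85) and H2-Q5 (0.42), with edgeR adjusted p from 0.416 to 0.686, and each had overlapping groups. H2-M5 was 2.47 without low replicate 2. H2-T22 was 0.62 without high replicate 3, 0.93 without low replicate 5 and 2.25 without low replicate 2. H2-Q1 was -1.03 without low replicate 1 and -0.26 with limma voom, and H2-Q5 was 0.02 without high replicate 3.

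For Tap1 and Tapbp, the low libraries lay close together. Tap1 (ENSMUSG00000037321, chromosome 17, 34187553 to 34197225) had 26.9, 47.7 and 33.3 CPM for high replicates 1, 3 and 4, against 28.2, 26.0 and 28.3 CPM for low replicates 1, 2 and 5. High replicates 3 and 4 lay above the low libraries and high replicate 1 among them. The mean was 36.0 ± 10.6 CPM for high and 27.5 ± 1.34 CPM for low litter size (SD, n = 3; log2 fold change 0.39, SE 0.25, edgeR adjusted p = 0.524), and without high replicate 3 the fold change was 0.13. Tapbp (ENSMUSG00000024308, chromosome 17, 33915899 to 33929292) had 156, 258 and 125 CPM across the high libraries, against 141, 145 and 132 CPM across the low libraries. High replicate 4 was the lowest of all 6, and the log2 fold change of 0.36 (SE 0.30, edgeR adjusted p = 0.625) was 0.01 without high replicate 3. Tap2, the partner of Tap1, had 77.4, 161 and 61.7 CPM across the high libraries, against 68.2, 45.0 and 59.6 CPM across the low libraries. Those groups overlapped too.

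**Figure D4:**
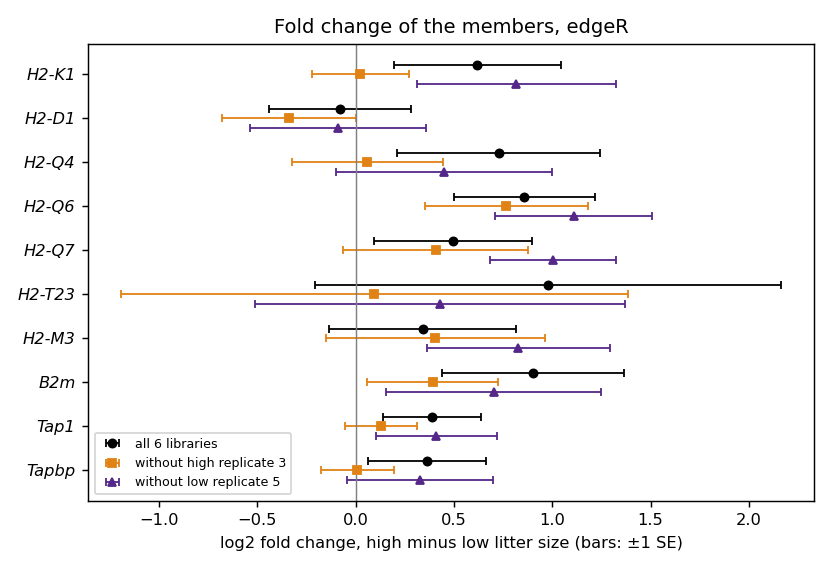
Log2 fold change of each member, high minus low litter size, from edgeR, with bars of 1 SE, for all 6 libraries (black), without high replicate 3 (orange) and without low replicate 5 (purple). H2-K1 and Tapbp come to 0.02 and 0.01 without high replicate 3, and H2-Q6 to 0.77. Without low replicate 2, which is not drawn, H2-Q6 was 0.55.

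7 of the 10 members were highest in high replicate 3, and the median member level there, as log2 CPM centred per gene, was 0.69, against -0.04 and -0.15 in high replicates 1 and 4 and -0.30, -0.23 and -0.05 for low replicates 1, 2 and 5. Of 13876 genes across the genome, 4.35% lay at least 4-fold above the median of the other 5 libraries in high replicate 3. The same share was 1.08 to 2.71% in the other libraries. Adipocyte markers were also highest in high replicate 3, as given above, and 6 of 6 tested had positive log2 fold changes (median 2.55). Endothelial markers summed to 889, 868 and 462 CPM for high replicates 1, 3 and 4 and 309, 442 and 492 CPM for low replicates 1, 2 and 5, with 6 of 6 positive (median 0.90). Leucocyte markers summed to 273, 323 and 237 CPM across the high libraries and 177, 280 and 221 CPM across the low libraries (6 of 6 positive, median 0.34). Macrophage and dendritic cell markers summed to 419, 562 and 276 CPM across the high and 344, 328 and 315 CPM across the low libraries (6 of 6 positive, median 0.37). T and NK cell markers ranged from 10.36 to 25.8 CPM across the high and 8.09 to 25.1 CPM across the low libraries (5 of 7 positive, median 0.39). B cell markers ranged from 5.01 to 7.62 CPM across the high and 5.95 to 9.54 CPM across the low libraries (2 of 4 positive, median -0.34). No marker of these 6 lists was at 0 counts in any library, and their part in the member values was not tested.

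The other genes of peptide loading mostly had negative fold changes. Of 11 tested, 0 passed with edgeR, 4 had an unadjusted p under 0.05, all lower in the high group, and DESeq2 called the same number. Over all genes, 14.4% had an unadjusted p under 0.05 with edgeR, and DESeq2 called 6.56%, with 4.3% lower in the high group. By sign of the fold change, 4 were above 0 and 7 below 0 on the log2 scale, and the median was -0.45, against 0.07 over all genes. The 4 above 0 were Tap2 (0.79), Erap1 (0.32), Lnpep (0.25) and Tapbpl (0.05). In 6 of the 11 all 3 high libraries lay below all 3 low libraries, a pattern found in 10.8% of all genes. The 6 were Sec61a1, Pdia3, Calr, Hspa5, Canx and Ganab, which encode a subunit of the translocation channel, chaperones and a glucosidase of the endoplasmic reticulum that serve many secreted proteins besides class I. Erap1 alone lay higher in all 3 high libraries, a pattern found in 8.75% of all genes. It had 97.6, 130 and 101 CPM across the high libraries, against 96.5, 86.9 and 79.5 CPM across the low libraries. Calr, which encodes the calreticulin of the loading complex, had 1036, 671 and 818 CPM for high replicates 1, 3 and 4, against 1735, 1418 and 1634 CPM for low replicates 1, 2 and 5. Pdia3, the disulfide isomerase bound to tapasin, had 683, 482 and 810 CPM across the high libraries, against 1509, 1296 and 1206 CPM across the low libraries. Hspa5, the chaperone BiP, averaged 1399 ± 357 CPM for high and 2838 ± 533 CPM for low litter size (SD, n = 3), and Sec61a1 averaged 223 ± 26.4 and 417 ± 51.3 CPM in the high and the low group.

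The fitted log2 fold changes were -0.92 (SE 0.32) for Calr, -1.02 (SE 0.32) for Pdia3, -1.02 (SE 0.38) for Hspa5 and -0.90 (SE 0.23) for Sec61a1. Their edgeR adjusted p ran from 0.205 to 0.314, and DESeq2 called all 4 as lower in the high group (adjusted p = 0.0113, 0.012, 0.022 and 0.00217 in the same order). Each library left out in turn kept all 4 negative, with values from -1.22 to -0.78. Granulosa markers summed to 71.0, 73.7 and 397 CPM for high replicates 1, 3 and 4 and 770.5, 652 and 1069 CPM for low replicates 1, 2 and 5. 5 of the 6 had negative log2 fold changes (median -0.55). Inhbb, an inhibin and activin subunit gene, carried most of this difference, with 47.0, 60.8 and 128 CPM across the high libraries and 545, 629 and 888 CPM across the low libraries. Inha, the inhibin alpha subunit gene, overlapped, with 1.64, 2.12 and 199 CPM across the high libraries and 182, 1.23 and 109.8 CPM across the low libraries. Epithelial markers of oviduct or uterus summed to 305, 394 and 1919 CPM across the high and 2381, 1349 and 1372 CPM across the low libraries (4 of 6 negative, median -1.52). Those 4, Krt8, Epcam, Cdh1 and Pax8, each lay lower in all 3 high libraries, as did 10.8% of all genes. DESeq2 called 3 of the 6, against 6.56% of all genes. Ovgp1 and Foxj1 were positive and overlapped, and Ovgp1 reached 1380 CPM in high replicate 4. Smooth muscle markers summed to 2617 to 8261 CPM across the high and 6169 to 12298 CPM across the low libraries (0 of 6 positive, median -1.09). The part of these cell types in the chaperone values was not tested.

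**Figure D5:**
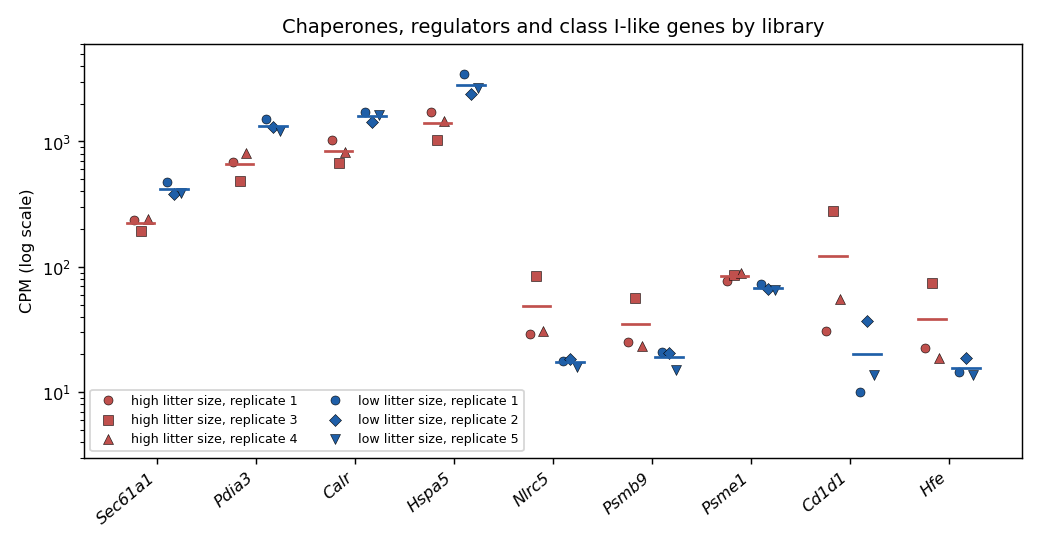
Levels in CPM on a log axis of 4 endoplasmic reticulum genes, the regulator Nlrc5, 2 proteasome genes and 2 class I-like genes, with high litter size in red on the left of each pair and low litter size in blue on the right. Lines are group means of 3 libraries. The 4 genes on the left lie lower in all 3 high libraries, as do 10.8% of all genes. Nlrc5, Psmb9 and Psme1 lie higher in all 3, as do 8.75% of all genes. Psmb5, which overlaps, and Nfya, which lies lower in all 3 high libraries, are not drawn.

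Among 18 tested regulators of class I transcription, 0 passed with edgeR, with 9 positive and 9 negative log2 fold changes (median 0.01). An unadjusted p under 0.05 and a call by DESeq2 were each found for 1 of them, Nlrc5, as against 14.4% and 6.56% of all genes. Nlrc5, the activator of class I genes, had the smallest p of the list. It had 28.9, 85.0 and 30.8 CPM for high replicates 1, 3 and 4, against 17.8, 18.2 and 15.7 CPM for low replicates 1, 2 and 5. All 3 high libraries lay above the low ones (log2 fold change 1.48, SE 0.45, edgeR adjusted p = 0.256, DESeq2 adjusted p = 0.0416), with a value of 0.79 (SE 0.18, edgeR adjusted p = 0.271) without high replicate 3. Nfya, a subunit of the factor that binds CCAAT, had a log2 fold change of -0.35 and the kinase Jak1 one of 0.39, or 0.25 without high replicate 1 (edgeR adjusted p = 0.424 and 0.475). Ifng, the gene of interferon gamma, had 1 to 13 counts in each library and was not tested. Irf1, which carries its signal to class I promoters, had 60.4, 67.3 and 62.0 CPM across the high libraries and 60.5, 97.3 and 54.6 CPM across the low libraries.

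Of 11 tested proteasome genes, 0 passed with edgeR, 0 had an unadjusted p under 0.05 and 0 passed with DESeq2, with 8 positive and 3 negative log2 fold changes (median 0.16). Psmb9, the immunoproteasome subunit whose start lies beside that of Tap1, had 24.9, 56.7 and 23.5 CPM for high replicates 1, 3 and 4, against 21.0, 20.6 and 15.04 CPM for low replicates 1, 2 and 5. The groups did not overlap (log2 fold change 0.89, SE 0.39, edgeR adjusted p = 0.366), with a value of 0.36 without high replicate 3. The activator subunit Psme1 also did not overlap, with 84.4 ± 6.90 CPM for high and 68.1 ± 3.76 CPM for low litter size (SD, n = 3; log2 fold change 0.31). Psmb8 and Psmb10, the other immunoproteasome subunits, had 0.09 and -0.02. Psmb5, the constitutive counterpart of Psmb8, had 0.84, or 0.45 without high replicate 3, and overlapped, and the thymus subunit Psmb11 had -0.70, or -0.08 without low replicate 1, at a level of 0.375 to 1.502 CPM.

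All 7 tested class I-like genes had positive log2 fold changes (median 0.77), against 55.3% positive and a median of 0.07 over all genes. None of the 7 passed with edgeR. An unadjusted p under 0.05 and a call by DESeq2 were each found for 1, Cd1d1, as against 14.4% and 6.56% of all genes. Cd1d1, which presents lipids, had 30.7, 278 and 55.0 CPM for high replicates 1, 3 and 4, against 9.99, 36.8 and 13.6 CPM for low replicates 1, 2 and 5. Low replicate 2 lay above high replicate 1. The log2 fold change was 2.59 (SE 0.94, edgeR adjusted p = 0.31, DESeq2 adjusted p = 0.0381) and was 1.09 without high replicate 3. Hfe, the class I-like regulator of iron uptake, had 1.30 (edgeR adjusted p = 0.351), or 0.40 without that library. Cd1d2 had 15, 320 and 2 counts across the high libraries, against 13, 1 and 1 across the low libraries, and its log2 fold change of 4.65 was 0.67 without high replicate 3. Procr, the protein C receptor, had 15.1 ± 6.93 CPM for high and 9.29 ± 0.405 CPM for low litter size (SD, n = 3; log2 fold change 0.70, or 0.24 without high replicate 1) and did not overlap.

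Receptors that bind class I were at low levels. Of 14 listed, 10 were tested, and 0 passed with edgeR or DESeq2. 1 (Klra4) had an unadjusted p under 0.05, against 14.4% of all genes. 7 had positive and 3 negative log2 fold changes (median 0.32), against 55.3% positive over all genes. Cd8a, the CD8 chain of T cells, had 5.11, 2.37 and 2.61 CPM for high replicates 1, 3 and 4, against 2.31, 1.81 and 1.75 CPM for low replicates 1, 2 and 5, with no overlap (log2 fold change 0.78, or 0.34 without high replicate 1, edgeR adjusted p = 0.478). Klrc1, which encodes the NKG2A receptor of the H2-T23 product, had 16, 24 and 14 counts across the high libraries, against 5, 12 and 4 across the low libraries (log2 fold change 1.47, edgeR adjusted p = 0.374). Klra4, a Ly49 receptor, had 25, 13 and 32 counts across the high libraries, against 8, 10 and 8 across the low libraries (log2 fold change 1.499, edgeR adjusted p = 0.28). Pirb, an inhibitory receptor for class I, had 0.56, or 0.21 without high replicate 3. Ly49 genes are close paralogs, so the division of reads among them is uncertain.

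Genes most like 3 of the members over the 6 libraries were found by the root mean square difference of log2 CPM centred per gene, among 12180 genes of at least 5 CPM. For B2m these were Txlng (0.13), Stradb (0.15), Tmem192 (0.15), Kif1b (0.15) and Uhrf1bp1 (0.16). For Tap1 they were Urod (0.04), Akr7a5, Atl3, Mfsd1 and Rrm2b (0.07), and for H2-K1 they were Mocs2 (0.05), Fh1, Tmem106a, Aifm1 and Atox1 (0.10). With 6 libraries and this many genes such likeness is a description of which libraries were high.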

How the data were processed

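Ovarian RNA of 6 libraries was divided into groups by the labelled litter size, with replicate numbers from the titles. Libraries were made from polyadenylated RNA, per the labels' protocols. The deposited values are estimated counts per gene, whole numbers taken as rounded kallisto output, which is not stated. Tools named in the submitters' processing notes are kallisto, Trim Galore and DESeq2, with the GRCm38 build, and no source used here gives the annotation release. Symbols came from a list of gene names, and positions, transcript lengths and words from GENCODE M21 on GRCm38.

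Genes were kept by filterByExpr (minimum count 10, minimum total 15), leaving 16455. After TMM normalization the edgeR 4.0.16 quasi-likelihood test was run in R 4.3.3, high minus low, adjusted over all genes with a threshold of 0.05. SE is the log2 fold change divided by the root of F. DESeq2 1.42.0 and limma 3.58.1 were alternatives, and 822 undefined DESeq2 adjusted p stayed undefined. The fits were also run on simulated data with the same dispersion for every gene, which cannot show how they perform on these libraries. Summaries used Python 3.11.15 and pandas 2.3.3. The members and gene lists were chosen with earlier results of these data known. Named were all members, and of each pathway list the 4 of smallest p, except 1 result that is not reported here. Other genes named for their pattern were chosen after their values were seen. H2-Q8, H2-Q9 and H2-T9 were not matched.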

Additional observations from a re-analysis of the deposited data

How the results depend on the processing

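No member passed under any setting that was run: 3 other scalings, 2 other filters, DESeq2, limma voom, the likelihood ratio test, robust dispersion, an adjusted p under 0.1, each library left out, and the joint removal of high replicate 3 and low replicate 5, which was chosen after seeing the data. The smallest adjusted p of a member was 0.226, for H2-Q6 with DESeq2. Over all genes, where the main count was 1, DESeq2 called 1026, the likelihood ratio test 631, limma voom 3 and library size alone 2, leaving out 1 library gave 0 to 1, and the joint removal gave 0. Of the 66 tested genes of the pathway lists, DESeq2 called 6 (Calr, Hspa5, Pdia3, Cd1d1, Sec61a1 and Nlrc5), where the main test called 0. Among all genes with a DESeq2 adjusted p, 6.56% were called. With 1 library left out, the fold change turned sign for H2-D1 without high replicate 1 (0.016), without high replicate 4 (0.0039) and without low replicate 2, and for H2-M3 without high replicate 1. The ranges over all fits that leave libraries out, the joint removal included, were -0.35 to 0.20 for H2-D1, -0.063 to 0.89 for H2-M3, -0.22 to 1.06 for H2-Q4, -0.47 to 2.59 for H2-T23, -0.027 to 0.53 for Tapbp and -0.14 to 0.62 for H2-Q5. The last 4 lows come from the joint removal, after which 6 of 10 members were positive. The cause was not tested. The other scalings kept 9 of 10 members positive. No paired analysis was possible because replicate number 1 is the one number found in both groups. Precision is limited by 3 libraries a group and by the division of reads among paralogs.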
